A study of Mus musculus with 6 samples.

Results

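The tryptophan and kynurenine pathway was followed here through 10 mouse genes chosen by name: Ido1, Ido2, Tdo2, Afmid, Kmo, Kynu, Haao, Acmsd, Qprt and Il4i1. All 10 were found among the 55401 gene IDs of the count table. The series measured RNA by sequencing in hearts of mice with myocardial infarction, the death of heart muscle behind a blocked coronary artery. The 3 mild cold libraries came from infarcted mice at 16 °C for 7 days, and the 3 room temperature libraries came from infarcted mice at 22 °C. No group without infarction was analysed here. The labels used here give no number of days at 22 °C and no strain, sex or age. They do not say whether a library is 1 animal or a pool. The title of the series names indole-3-acetamide, a compound derived from tryptophan, and the aryl hydrocarbon receptor (AHR), which binds indoles and kynurenines. The comparison therefore addresses whether transcripts of the enzymes that use up tryptophan differ between the housing temperatures.

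Most tryptophan that is not built into protein is broken down by the kynurenine pathway. A dioxygenase opens the indole ring, a formamidase frees kynurenine, and kynurenine then goes either to kynurenic acid or, through further oxidation, to quinolinate and NAD. The liver carries the whole route and uses TDO2 for the opening step, while IDO1 is the form that immune and vascular cells make under interferon gamma. Il4i1 codes for a secreted amino acid oxidase that turns tryptophan into indole derivatives instead.

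All 10 genes were scarce in these hearts. Together they took between 200 and 1023 counts per library, which is 0.000463% to 0.00189% of the library totals of 41619023 to 65285901 counts. The highest count of any of them in any library was 582, for Tdo2. Levels are given as CPM, counts scaled to each library's depth with TMM factors, which assume that most genes do not differ, so that 1 count was worth 0.0136 to 0.0268 CPM. Of the 10, 3 (Ido2, Acmsd and Il4i1) were left out by the expression filter, which asks for about 0.234 CPM in 3 libraries before the TMM factors are applied, and are too low to judge. Kynu and Qprt passed that filter mainly through mild cold libraries: 2 mild cold and 1 room temperature library reached 0.234 CPM for Kynu, and 3 and 1 for Qprt. A gene that passes through 1 group is more likely to differ, so no support is taken from how many passed. Small counts carry wide counting error. The 6 counts of Qprt in room temperature 1 have an exact Poisson 95% interval of 2.20 to 13.1 counts, and such intervals cover counting error only.

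Several libraries held transcripts of other tissues, and these are set out before the results because some of the genes are liver genes. Of 30 hepatocyte markers, 27 were higher in both mild cold 1 and mild cold 3 than in any of the other 4 libraries. Alb, the albumin gene, had 7248, 128 and 7462 counts in mild cold 1 to 3 and 318, 879 and 10 counts in room temperature 1 to 3. Without Cyp2e1, which fat cells also express, the hepatocyte markers summed to 513.8, 51.7 and 629.3 CPM in mild cold 1 to 3 and to 68.1, 101.8 and 39.3 CPM in room temperature 1 to 3. With Cyp2e1 the sums were 535.5, 52.7, 720.8, 579.9, 161.1 and 241.2 CPM in the same order. Room temperature 1 also held 28312 counts of the atrial gene Myl7, 32000 of the airway gene Scgb1a1 and 8688 of Ucp1, a marker of brown fat, against at most 18, 102 and 2 counts in the other 5 libraries. The label calls each sample a whole heart, yet atrial Myl7 was nearly absent from those 5. Fat transcripts were higher at room temperature: Adipoq, the adiponectin gene, had 6, 2 and 600 counts in mild cold 1 to 3 and 9606, 802 and 4219 counts in room temperature 1 to 3. The 8 adipocyte markers summed to 19.4, 19.5 and 135.1 CPM in mild cold and to 1480, 136.9 and 414.5 CPM at room temperature. Of these 7 were tested, with 0 past the adjusted p and 4 lower by the unadjusted p, against 10.6% of all tested genes. Room temperature 3 held 1638 counts of Myh4, a fast skeletal muscle myosin, against at most 16 elsewhere. The 9 kidney tubule markers summed to 14.8, 6.22 and 11.8 CPM in mild cold 1 to 3. In room temperature 1 to 3 they summed to 6.28, 7.81 and 5.25 CPM, so mild cold 1 and mild cold 3 were highest here too. Of the 4 tested, 2 had higher and 2 had lower values in mild cold by log2 fold change. Ventricular markers such as Myh6 were abundant in all 6 libraries, from 6287 to 13396 CPM. All 10 ventricular markers had higher values in mild cold by log2 fold change, with a median of 0.47. Of these 0 passed the adjusted p and 3 were higher by the unadjusted p, against 9.11% of all tested genes. Fibroblast markers summed to 2225 to 3692 CPM in the mild cold libraries and to 3779 to 6041 CPM at room temperature, and mitochondrial transcripts took 34.4% to 41.0% and 26.2% to 31.6% of the counts. The part of these shifts in the results below was not tested.

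Across the pathway 3 patterns were seen. Ido1 and Qprt were higher in every mild cold library than in every room temperature library, at about 2.57-fold and 3.55-fold, and the untested Acmsd had the same order. This order was seen for 12.0% of all 16757 tested genes. Tdo2 and Kynu were high in mild cold 1 and mild cold 3 and low in mild cold 2, as most hepatocyte markers were. Haao, Acmsd, Ido2 and Afmid also had their highest values in mild cold 1 and mild cold 3. Mild cold 2 of Haao lay within the room temperature range, and mild cold 2 of Acmsd lay above it. Kmo and Afmid overlapped between the groups, with intervals on both sides of 0. None of the 7 tested genes passed an adjusted p of 0.05 in edgeR's quasi-likelihood test, where the smallest adjusted p was 0.107 for Qprt and the background over all genes was 0%. By the unadjusted p, 4 of the 7 were under 0.05, all higher in mild cold, against 19.7% of all 16757 tested genes in either direction and 9.11% higher in mild cold. That count was 2 of 8 without mild cold 3 and 6 of 8 without mild cold 2, where the filter kept 8 members. Over all genes these fits had 2380 of 17421 and 3117 of 17457 under the unadjusted 0.05 in either direction. Qprt is among the 4 and passed the filter mainly through mild cold. Of the 5 genes at the filter's cutoff in all 6 libraries (Ido1, Tdo2, Afmid, Kmo and Haao), 3 were under the unadjusted 0.05 and the median log2 fold change was 1.33, against -0.02 over all tested genes.

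**Figure D1:**
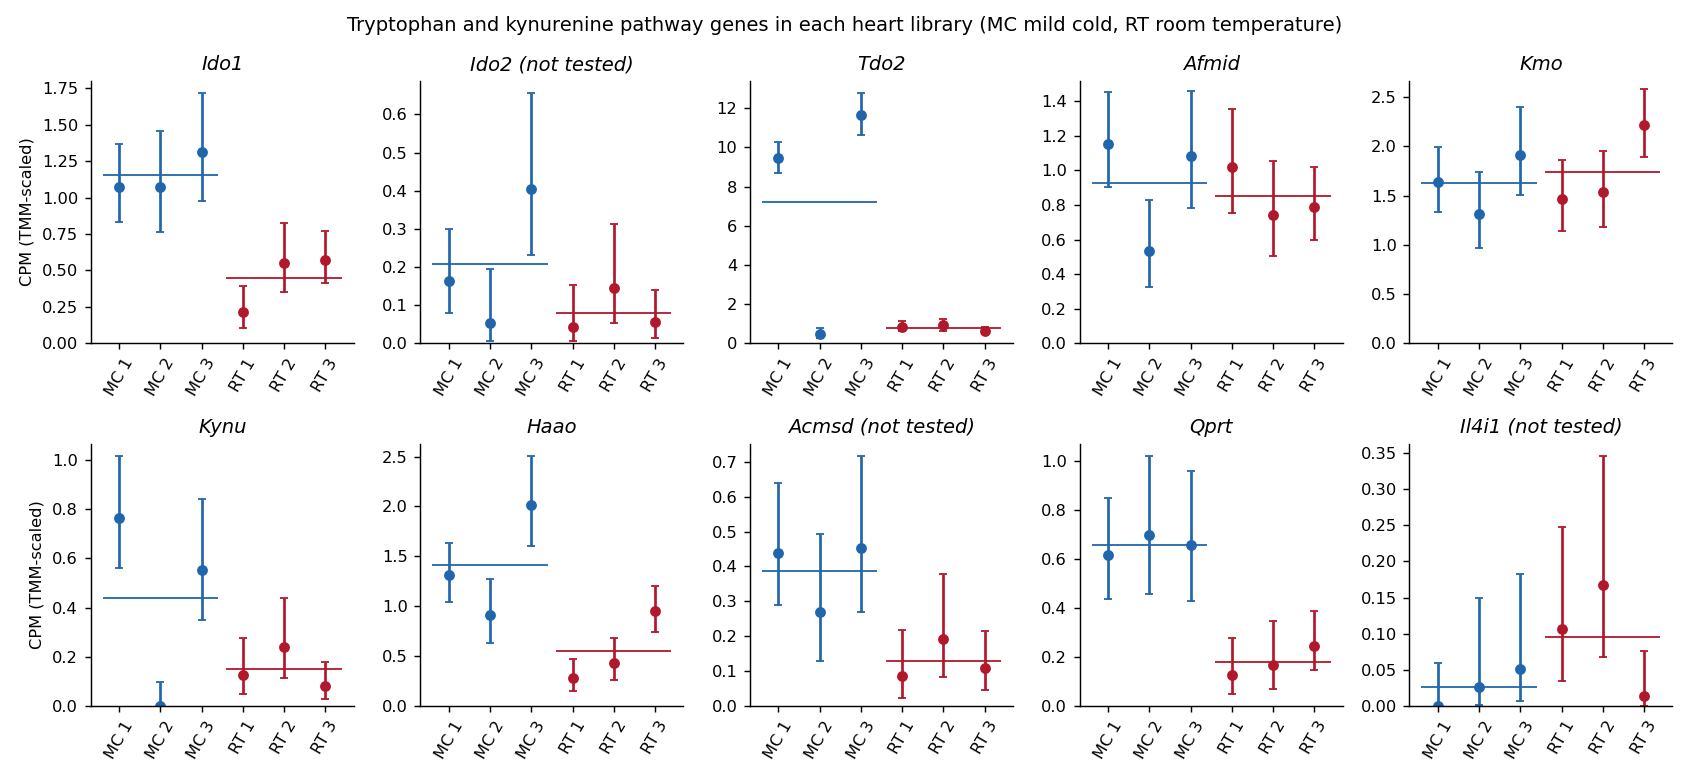
TMM-scaled CPM of the 10 genes in each of the 3 mild cold (MC) and 3 room temperature (RT) libraries; points are libraries, bars are exact Poisson 95% intervals of the count and horizontal lines are group means. For Ido1, Acmsd and Qprt every MC point lies above every RT point, while Tdo2 and Kynu are high only in MC 1 and MC 3.

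Promoter sequence was available for 7 of the 10 genes from RefSeq (build GRCm38.p6), and those of the 3 genes with the highest tested fold changes among them are shown because AHR is named in the series title. The 250 bases before each annotated start site are given 5′ to 3′ on the gene's strand, all on the minus strand, from chr3:81975729-81975978 for Tdo2, chr17:83846791-83847040 for Haao and chr7:127122030-127122279 for Qprt. Capitals mark matches to the motifs searched on both strands.
Tdo2: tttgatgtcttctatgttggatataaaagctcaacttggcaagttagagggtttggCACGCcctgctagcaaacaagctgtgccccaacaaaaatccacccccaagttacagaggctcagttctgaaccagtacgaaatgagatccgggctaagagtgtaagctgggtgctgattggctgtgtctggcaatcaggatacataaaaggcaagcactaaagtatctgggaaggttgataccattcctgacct
Haao: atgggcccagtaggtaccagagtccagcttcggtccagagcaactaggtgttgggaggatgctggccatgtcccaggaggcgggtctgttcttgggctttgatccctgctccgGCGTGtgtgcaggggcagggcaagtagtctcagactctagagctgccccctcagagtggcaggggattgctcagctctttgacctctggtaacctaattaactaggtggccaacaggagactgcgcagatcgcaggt
Qprt: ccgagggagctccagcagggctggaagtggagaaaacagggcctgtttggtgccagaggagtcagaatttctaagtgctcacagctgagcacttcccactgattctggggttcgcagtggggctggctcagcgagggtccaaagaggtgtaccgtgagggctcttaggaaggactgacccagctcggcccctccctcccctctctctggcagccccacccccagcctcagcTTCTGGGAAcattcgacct
The core of the AHR binding site, GCGTG, was found in Tdo2 (as CACGC, first base at position -194 from the start) and in Haao (first base at -137), and in 28.2% of 27025 promoters of the same length. Among the other 5 promoters no copy was found, Qprt included. The STAT dimer motif TTCNNNGAA was found in Qprt (first base at -19) and in 7.18% of all promoters, and the interferon response core was found in none of the 7 and in 3.04% of all promoters. A match describes these letters and is no sign of binding.

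The opening step was measured through Tdo2, Ido1 and Ido2. Tdo2 (ENSMUSG00000028011.16), tryptophan dioxygenase, had 582, 18 and 462 counts in mild cold 1 to 3, or 9.46, 0.483 and 11.7 CPM. In room temperature 1 to 3 it had 40, 38 and 47 counts, or 0.851, 0.911 and 0.639 CPM. Mild cold 2 thus lay below all 3 room temperature libraries, and mild cold 1 and mild cold 3 lay far above them. The group means were 7.20 ± 5.92 CPM for mild cold against 0.800 ± 0.143 CPM for room temperature (SD, n = 3 per group). The log2 fold change was 3.18 (SE 0.94, edgeR adjusted p = 0.151), with a 95% interval of 0.98 to 5.38, and the exact 2-sided permutation p over the 6 libraries was 0.4.

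With mild cold 2 as the only mild cold library, the log2 fold change of Tdo2 was -0.72 (edgeR adjusted p = 0.746, with the lone library assumed to vary like the others). With DESeq2's Wald test Tdo2 passed (adjusted p = 0.0413), where 4.01% of genes were called higher in mild cold. With limma-voom its log2 fold change was 2.50 (adjusted p = 0.389, unadjusted p = 0.129 across all genes). The high libraries of Tdo2 were the libraries with high hepatocyte markers, and the part of liver transcripts in its level was not tested. Tat, a liver enzyme of tyrosine breakdown, had 613, 2 and 494 counts in mild cold 1 to 3 and 48, 53 and 8 at room temperature. Per 100 counts of Alb, Tdo2 had 8.03, 14.1 and 6.19 counts in mild cold 1 to 3 and 12.6, 4.32 and 470 counts in room temperature 1 to 3, the last resting on 10 counts of Alb.

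Ido1 (ENSMUSG00000031551.12), the interferon-induced dioxygenase, had 66, 40 and 52 counts in mild cold 1 to 3 and 10, 23 and 42 counts in room temperature 1 to 3. Scaled to CPM these were 1.07, 1.07 and 1.31 in mild cold and 0.213, 0.551 and 0.571 at room temperature. The groups did not overlap, which was so for 12.0% of all tested genes in this direction and 25.1% in either. Mild cold 2, low in hepatocyte markers, stood level with mild cold 1, and the part of other tissues in Ido1 was not tested. The log2 fold change was 1.36 (SE 0.44, 95% interval 0.34 to 2.38, edgeR adjusted p = 0.168, exact permutation p = 0.1, the smallest that 3 against 3 libraries allow). Against room temperature, mild cold 2 alone gave a log2 fold change of 1.26 (edgeR adjusted p = 0.711). Room temperature 1, which held airway transcripts, had the lowest Ido1 count.

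Of 18 interferon gamma targets 17 were tested and 0 passed the adjusted p, with 0 higher and 2 lower by the unadjusted p and a median log2 fold change of -0.03. Over all genes 10.6% were lower by the unadjusted p, so 2 of 17 is near the background. Those 2 were Cxcl10 and Ciita. Cxcl10, a chemokine for T cells, had 16, 21 and 9 counts in mild cold 1 to 3 and 86, 70 and 82 at room temperature, a log2 fold change of -2.14 (SE 0.45, edgeR adjusted p = 0.0998). Ciita, the master regulator of MHC class II genes, was at -1.29 (SE 0.21, edgeR adjusted p = 0.0878), while Irf1, a transcription factor that acts on Ido1, was at 0.30 (SE 0.17, edgeR adjusted p = 0.379). Ifng itself had 0 counts in each mild cold library and 1, 0 and 4 counts in room temperature 1 to 3. In bulk tissue, fewer cells of a type and less RNA per cell cannot be told apart.

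Ido2, the paralogue that lies beside Ido1, had 10, 2 and 16 counts in mild cold 1 to 3 and 2, 6 and 4 counts at room temperature. The groups overlapped, and the gene was too low to judge. Its highest libraries were mild cold 3 and mild cold 1.

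Afmid, the formamidase that frees kynurenine, had 71, 20 and 43 counts in mild cold 1 to 3 and 48, 31 and 58 counts at room temperature. The groups overlapped, and mild cold 2 was lowest. Mild cold 1 and mild cold 3 were highest, as for most hepatocyte markers, whose part in Afmid was not tested. The log2 fold change was 0.13 (SE 0.39, edgeR adjusted p = 0.890), and its 95% interval of -0.78 to 1.04 leaves room for a change of either sign. Its counts are uncertain: Gm20708 or Tk1 overlap 46.6% of the exon bases in the gene models used, 44.2% on the same strand. The strand setting of the counting is not given in the sources used here.

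Of the enzymes that act on kynurenine, Kmo, the monooxygenase that makes 3-hydroxykynurenine, had 101, 49 and 76 counts in mild cold 1 to 3 and 69, 64 and 163 counts at room temperature. The mean level was 1.62 ± 0.302 CPM for mild cold against 1.74 ± 0.415 CPM for room temperature (SD, n = 3 per group). The groups overlapped, with a log2 fold change of -0.10 (SE 0.29, 95% interval -0.78 to 0.58, edgeR adjusted p = 0.880). Kmo is made by macrophages and microglia besides liver and kidney. The 15 macrophage and monocyte markers summed to 605.8, 830.1 and 738.6 CPM in mild cold 1 to 3 and to 778.2, 639.3 and 1096 CPM in room temperature 1 to 3. Room temperature 3 was the highest library for both. Mild cold 2 was the lowest library for Kmo, at 1.31 CPM, but the highest mild cold library for these markers. The part of these cells in Kmo was not tested.

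Kynu, kynureninase, which cleaves kynurenine and 3-hydroxykynurenine, had 47, 0 and 22 counts in mild cold 1 to 3 and 6, 10 and 6 counts at room temperature. Mild cold 2 was the lowest library. Its count of 0, if taken to allow up to 3 counts, allows up to 0.0804 CPM, and the exact Poisson 95% interval reaches 0.0989 CPM. Mild cold 1 and mild cold 3 were the highest, as for most hepatocyte markers, whose part in Kynu was not tested. The log2 fold change of 1.62 had an SE of 1.08 and a 95% interval of -0.92 to 4.15 (edgeR adjusted p = 0.452). It was 0.93 without mild cold 1 (edgeR adjusted p = 0.774) and 2.17 without mild cold 2 (edgeR adjusted p = 0.185), and limma-voom gave 0.64 (adjusted p = 0.841).

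The branch to kynurenic acid is run by aminotransferases, and 3 of them were more abundant than the genes above. Of 4 such genes 3 were tested, and 0 passed the adjusted p, while all 3 were higher in mild cold by the unadjusted p. Over all tested genes 9.11% were higher by the unadjusted p. Kyat1 had 1280, 673 and 672 counts in mild cold 1 to 3 and 654, 592 and 941 counts at room temperature. In CPM it averaged 18.6 ± 1.99 against 13.6 ± 0.736 (log2 fold change 0.45, SE 0.11, edgeR adjusted p = 0.120). Its groups did not overlap, as for 12.0% of all tested genes in this direction. Got2, which also serves the malate-aspartate shuttle of mitochondria, was at 0.49 (SE 0.16, edgeR adjusted p = 0.176) and Kyat3 at 0.43 (SE 0.17, edgeR adjusted p = 0.235). The fourth, Aadat, had 36, 2 and 42 counts in mild cold 1 to 3 and 0 counts in each room temperature library. If 0 is taken to allow up to 3 counts, that is at most 0.0719 CPM. It was too low to test, and its high libraries were again mild cold 1 and mild cold 3. The 10 ventricular markers had a median log2 fold change of 0.47. The part of heart muscle cells in Kyat1, Got2 and Kyat3 was not tested.

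Below 3-hydroxykynurenine, Haao, Qprt and Acmsd had higher means in mild cold, though none passed the adjusted p. Haao, the dioxygenase that opens the ring of 3-hydroxyanthranilate, had 81, 34 and 80 counts in mild cold 1 to 3 and 13, 18 and 70 counts at room temperature. In CPM these were 1.32, 0.912 and 2.02 in mild cold and 0.277, 0.431 and 0.952 at room temperature, so the groups met at mild cold 2 and room temperature 3. The log2 fold change was 1.33 (SE 0.53, 95% interval 0.08 to 2.58, edgeR adjusted p = 0.232). It was 1.995 without room temperature 3 and 0.996 without mild cold 3. Mild cold 3 and mild cold 1 were the highest libraries of Haao, as for most hepatocyte markers, whose part in Haao was not tested.

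Qprt (ENSMUSG00000030674.5), which turns quinolinate into the NAD precursor nicotinate mononucleotide, had 38, 26 and 26 counts in mild cold 1 to 3 and 6, 7 and 18 counts in room temperature 1 to 3. In CPM these were 0.618, 0.697 and 0.656 in mild cold and 0.128, 0.168 and 0.245 at room temperature. The mild cold libraries lay close together. They were above all room temperature libraries, which was so for 12.0% of all tested genes in this direction. Mild cold 2, which was low in hepatocyte markers, was the highest. The exact Poisson 95% interval of its 26 counts, 0.455 to 1.02 CPM, covers mild cold 1 and mild cold 3. The part of other tissues in Qprt was not tested. The means were 0.657 ± 0.0397 and 0.180 ± 0.0595 CPM (SD, n = 3 per group), with a log2 fold change of 1.83 (SE 0.42, 95% interval 0.85 to 2.80, edgeR adjusted p = 0.107, exact permutation p = 0.1). Across the 6 fits that each left out 1 library it ranged from 1.63 to 2.13, with unadjusted p from 0.00491 to 0.0125. Mild cold 2 alone gave 1.93 against room temperature (edgeR adjusted p = 0.674). DESeq2's Wald test called Qprt at adjusted p = 0.0258, as it called 8.75% of all genes in either direction. Qprt reached the filter's cutoff in 3 mild cold libraries and 1 room temperature library, so no support is drawn from these fits.

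Acmsd, the decarboxylase that draws the intermediate away from quinolinate, had 27, 10 and 18 counts in mild cold 1 to 3 and 4, 8 and 8 counts at room temperature. In CPM these were 0.439, 0.268 and 0.454 against 0.0851, 0.192 and 0.109, so the groups did not overlap, but before TMM scaling mild cold 2 lay under the filter's cutoff, so that 2 libraries reached it, and the gene is too low to judge. Without a filter its log2 fold change was 1.59 (SE 0.69, edgeR adjusted p = 0.332). The highest libraries of Acmsd were also mild cold 3 and mild cold 1, as for most hepatocyte markers and the summed kidney tubule markers. The part of liver or kidney transcripts in Acmsd was not tested.

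Il4i1 had 0, 1 and 2 counts in mild cold 1 to 3 and 5, 7 and 1 counts in room temperature 1 to 3. At this depth no difference could be judged. In addition Atf5, Nup62 or Tbc1d17 overlap 86.3% of the Il4i1 exon bases, though 2.38% on the same strand, so the overlap matters mainly if the counting ignored strand. Il4i1 is known from B cells and antigen-presenting cells, and the 7 B cell markers summed to 9.28, 12.0 and 44.3 CPM in mild cold 1 to 3 and to 34.6, 60.3 and 131.1 CPM in room temperature 1 to 3. Their part in the few counts of Il4i1 was not tested.

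**Figure D2:**
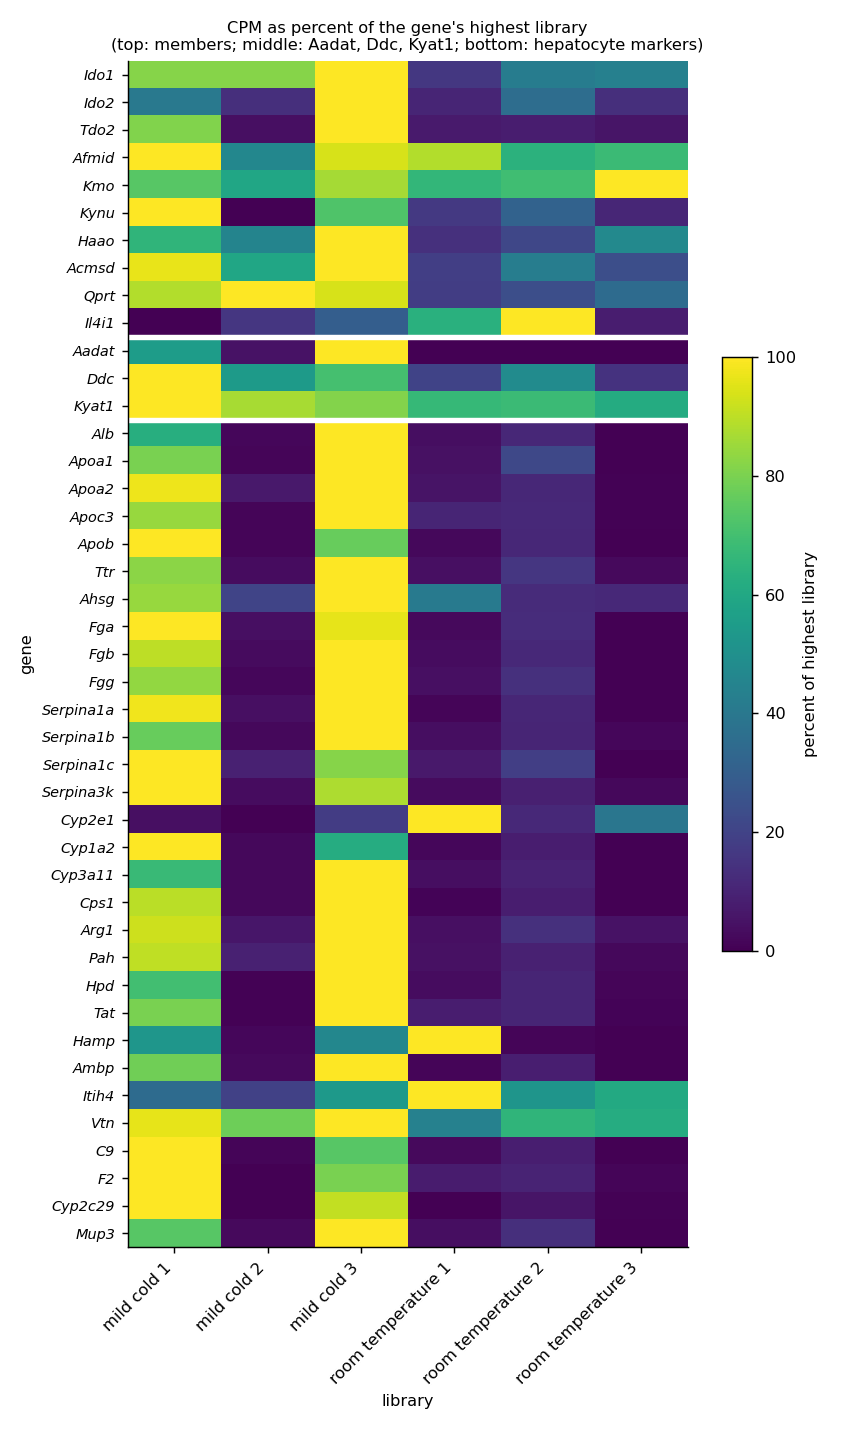
Each gene's CPM in each library as a percent of its own highest library (colour), with the 10 members at the top, Aadat, Ddc and Kyat1 below them and 30 hepatocyte markers at the bottom. Tdo2, Kynu and Aadat share the bright mild cold 1 and mild cold 3 columns of the hepatocyte markers, whereas Qprt and Ido1 are bright in all 3 mild cold libraries. Haao, Acmsd and Afmid are also brightest in mild cold 1 and mild cold 3.

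Levels between genes were compared as CPM per kilobase of exon. At room temperature Kmo stood highest of the 10 at 0.368 ± 0.0878 CPM per kilobase, followed by Ido1 at 0.244 ± 0.110, Afmid at 0.240 ± 0.0421 and Tdo2 at 0.206 ± 0.0368 CPM per kilobase (SD, n = 3). Neighbours among these 4 lay within their spread of each other. Haao at 0.118 ± 0.0756 and Qprt at 0.0681 ± 0.0225 CPM per kilobase came next, and Acmsd, Kynu, Il4i1 and Ido2 lay between 0.0221 and 0.0454. In mild cold the order was led by Tdo2 at 1.85 ± 1.52 CPM per kilobase, whose spread covers Ido1 at 0.631 ± 0.0755, and Kmo at 0.344 ± 0.0639 came after Ido1. Haao at 0.302 ± 0.120, Afmid at 0.261 ± 0.0956 and Qprt at 0.248 ± 0.0150 CPM per kilobase did not differ beyond their spread. By contrast Kyat1 reached 6.36 ± 0.680 and Got2 108.1 ± 11.2 CPM per kilobase in mild cold.

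**Figure D3:**
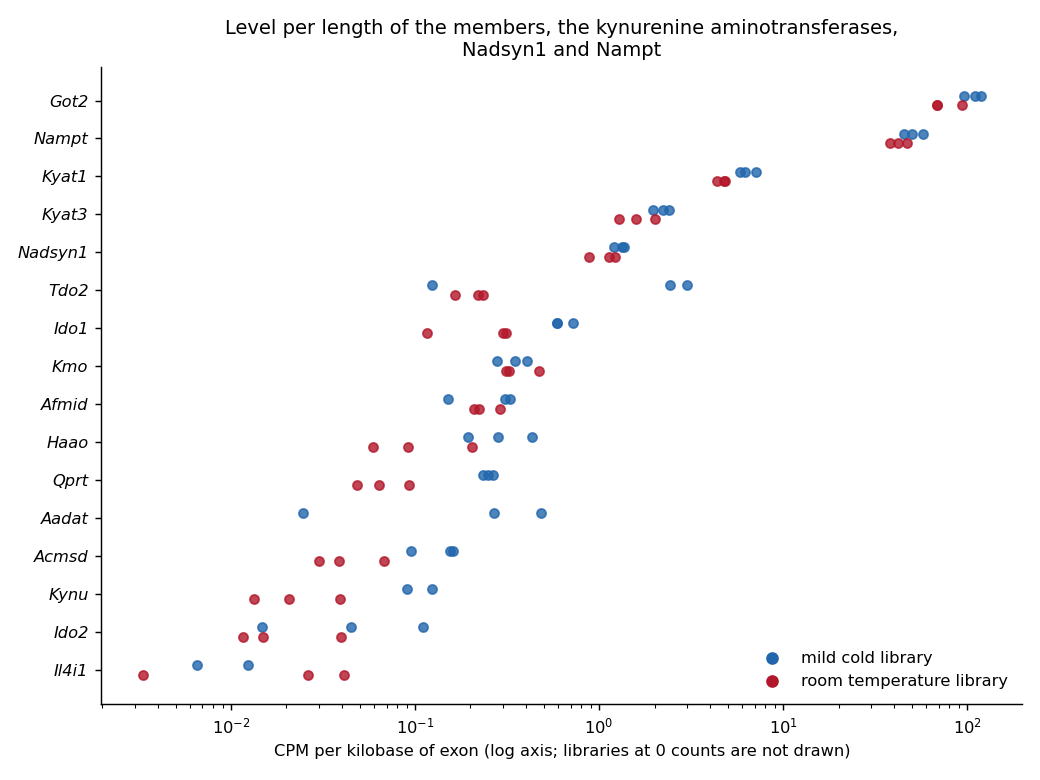
CPM per kilobase of exon (log axis) for the members, the 4 kynurenine aminotransferases, Nadsyn1 and Nampt, with 1 point per library, coloured by group; libraries at 0 counts are not drawn. Apart from Tdo2 in mild cold 1 and mild cold 3, every member lies below Nadsyn1, Kyat1, Kyat3, Nampt and Got2 in all libraries.

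In the steps on either side of the pathway no tested gene passed the adjusted p. By the unadjusted p 9.11% of all tested genes were higher and 10.6% lower in mild cold, which is the base for the counts of each list. Of 9 genes for tryptophan transport and charging, 7 were tested and 0 passed, with 0 higher and 1 lower by the unadjusted p and a median log2 fold change of -0.27. The heavy and light chains of the large neutral amino acid transporter lay lower in mild cold without overlap, with Slc3a2 at -0.34 (SE 0.10, edgeR adjusted p = 0.150) and Slc7a5 at -0.38 (SE 0.16, edgeR adjusted p = 0.259). That order was seen for 13.1% of all tested genes. Of 11 genes of NAD synthesis and salvage, all were tested and 0 passed, with 3 higher and 2 lower by the unadjusted p and a median of 0.26. Nmnat1, the nuclear enzyme that completes NAD, averaged 20.1 ± 1.16 CPM against 15.0 ± 2.93 CPM (log2 fold change 0.42, SE 0.15, edgeR adjusted p = 0.191). Nnmt, which methylates nicotinamide, was at -1.12 (SE 0.34, edgeR adjusted p = 0.156), Nadk, the cytosolic NAD kinase, at -0.45 (SE 0.19, edgeR adjusted p = 0.243) and Nadk2, its mitochondrial counterpart, at 0.36 (SE 0.14, edgeR adjusted p = 0.224).

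Of 8 NAD-consuming or NAD-reducing genes 0 passed, with 0 under the unadjusted threshold in either direction and a median of 0.22. Cd38, an NAD hydrolase of immune and vascular cells, was at 0.40 (SE 0.22, edgeR adjusted p = 0.360). Of 5 genes of the cofactor and glutarate steps 0 passed, with 3 higher by the unadjusted p, against 9.11% of all tested genes. Their median was 0.40. Gcdh, glutaryl-CoA dehydrogenase, averaged 52.5 ± 2.81 CPM against 38.5 ± 4.48 CPM (log2 fold change 0.45, SE 0.11, edgeR adjusted p = 0.114). The groups did not overlap, as for 12.0% of all tested genes in this direction. The part of heart muscle cells in Gcdh was not tested.

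Of 10 serotonin and melatonin genes 6 were tested and 0 passed, with 1 higher by the unadjusted p and a median of -0.09. That gene was Ddc, the aromatic amino acid decarboxylase, with 323, 107 and 147 counts in mild cold 1 to 3 and 50, 106 and 56 at room temperature, a log2 fold change of 1.45 (SE 0.48, edgeR adjusted p = 0.173). Tph1, which starts serotonin synthesis, had at most 14 counts in any library. Of 5 receptor genes for kynurenines and indoles 4 were tested and 0 passed, with 0 higher and 1 lower by the unadjusted p and a median of -0.08. The lower one was Gpr35, a receptor for kynurenic acid, with 58, 36 and 31 counts in mild cold 1 to 3 and 62, 91 and 190 at room temperature, a log2 fold change of -1.18 (SE 0.33, edgeR adjusted p = 0.141). Ahr was at -0.20 (SE 0.25, edgeR adjusted p = 0.690). Glucocorticoids raise Tdo2 in liver, and of 11 glucocorticoid targets 0 passed, with 1 higher by the unadjusted p and a median of 0.16. Tat, which is also in the hepatocyte list, is among these 11 at 3.27 (SE 1.40, edgeR adjusted p = 0.256). It is not the gene under the unadjusted threshold (edgeR unadjusted p = 0.0508).

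**Figure D4:**
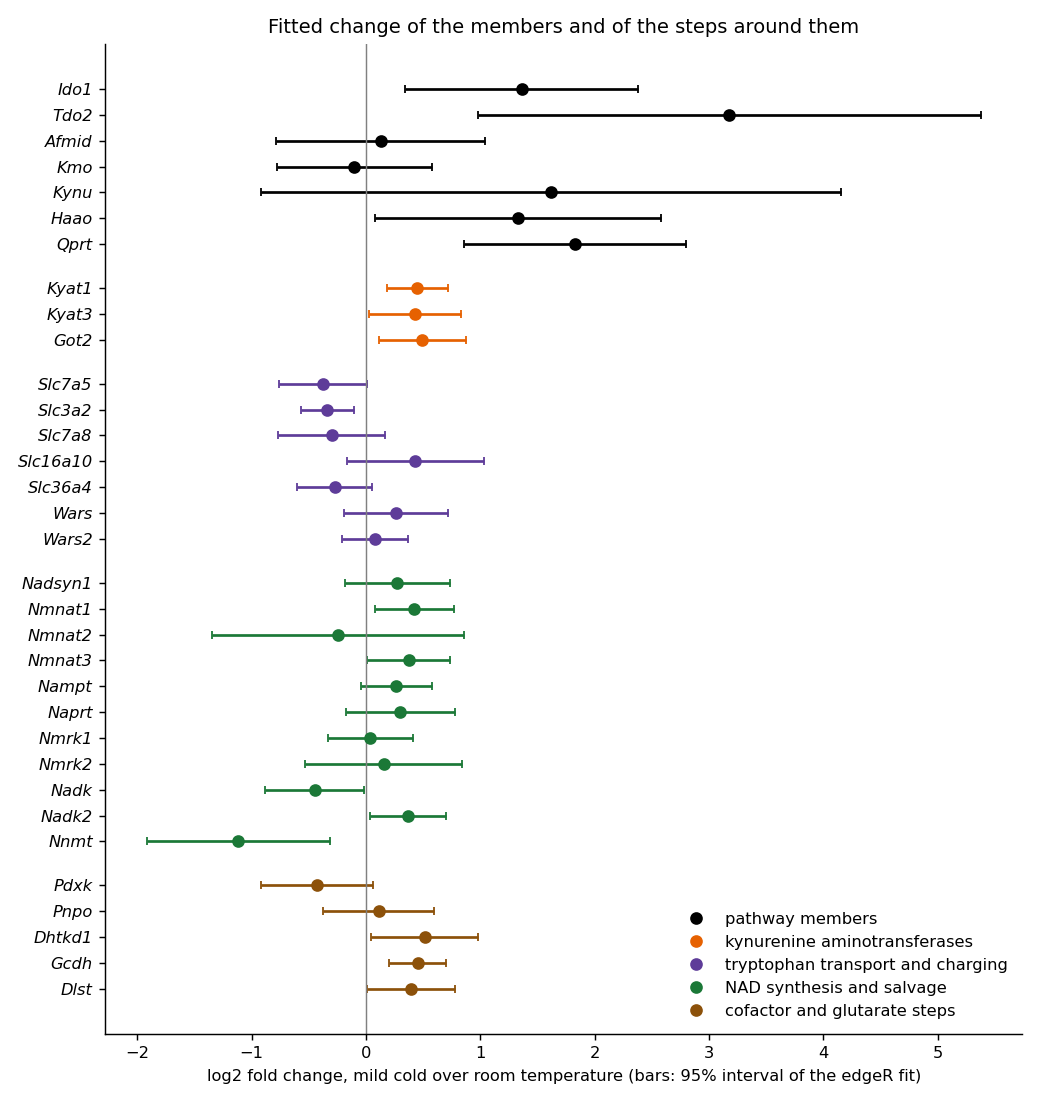
Log2 fold change of mild cold over room temperature (points) with the 95% interval of the edgeR fit (bars) for the 7 tested members and for tested genes of 4 neighbouring gene lists, coloured by list. Ido1, Tdo2, Haao and Qprt have intervals above 0 before adjustment, Kmo (-0.10) and Afmid (0.13) straddle 0, and the members' intervals are wider than those of the aminotransferases.

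The genes whose levels most resembled each tested member over the 6 libraries were picked by Pearson's r on log2(CPM + 1) among 13555 genes, as a description. For Tdo2 they were Atg9a (r = 0.999), Gpr137 (r = 0.999), Sult2a8 (r = 0.993), Cyp2c29 (r = 0.992) and Mup15 (r = 0.992). Cyp2c29 is in the hepatocyte list, and Sult2a8 and Mup15 are also known from liver. For Kynu they were Tmem259, B230110C06Rik, Wdtc1, Fam120a and Rgn (r = 0.987 to 0.995), of which Rgn, regucalcin, is known from liver. For Ido1 they were Mkrn2, Kcnj2, Txnrd3, Zfp985 and Smu1 (r = 0.989 to 0.999), for Qprt Mterf4, Sh2d3c, Mrps24, Nr0b2 and Sema6b (r = 0.988 to 0.997) and for Haao Alox5, Tspyl4, Csrnp2, Gin1 and Irak1bp1 (r = 0.981 to 0.993). For Afmid they were Bace1, Dhcr7, Utp4, Zfp462 and Elac2 (r = 0.977 to 0.999) and for Kmo Cc2d2a, Syt17, Map3k12, Rnf170 and Fermt3 (r = 0.953 to 0.985). All rest on the same 6 libraries and were picked as the highest of 13555.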

How the data were processed

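The authors deposited unnormalized read counts for each gene, made with featureCounts 2.0.3 on build GRCm39, per the submitters' processing notes. Aligner, annotation release, read-pair handling and strand setting: not given in the sources used here. In each library 71.9% to 78.3% of counts from 1 to 10 were even, so a count may not be 1 fragment, and counting intervals would then be too narrow. Symbols, exon lengths and overlaps came from GENCODE M21 by ID without version (55141 of 55401 IDs matched).

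Tests across genes used edgeR 4.0.16 under R 4.3.3 (quasi-likelihood test, 2-sided, group only, default filter by group, TMM scaling, Benjamini-Hochberg adjustment over 16757 genes, threshold 0.05). SE is the log2 fold change divided by the root of F. Alternatives used DESeq2 1.42.0 and limma 3.58.1. The code was tested on simulated data. The labels do not say whether libraries are separate animals, so p-values measure only how these libraries vary, possibly for technical reasons. Named were all 10 members, up to 4 genes per pathway list by smallest p, up to 3 markers per list by level, and 5 genes most like each member. A gene that this rule names is not reported here. Further genes (Ifng, Tph1, Aadat, Myl7, Ucp1, Myh4) were picked after their values were seen. Members and lists were chosen with earlier results of these data known.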

Additional observations from a re-analysis of the deposited data

How the results depend on the processing

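None of the tested members passed an adjusted p of 0.05 under any setting except the DESeq2 Wald test, which called 2 (Tdo2 and Qprt). Over all genes the number called was 0 in edgeR (3295 at an unadjusted p under 0.05), 1404 with DESeq2, 356 with library totals only, 184 without an expression filter, 396 at a threshold of 0.1 and 0 with limma-voom. Under library totals only, the all-gene median was -0.27 on the log2 scale. With the replicate number as a block 1 gene and 0 members were called. Tdo2 was then at 2.58 (edgeR adjusted p = 0.327) and no longer under the unadjusted threshold. Same-numbered libraries correlated at 0.126, -0.139 and -0.00917 in their deviations from the group mean, and other pairs at -0.471 to 0.431. With 3 libraries per group these values cannot decide whether equal numbers mark a pairing. The labels do not say. Leaving out 1 library at a time gave 0 to 2 genes (2 without room temperature 1) and 0 members. The direction turned for members near 0: Afmid was at -0.12 with library totals only, -0.065 without mild cold 1 and -0.12 without the deepest library of each group, and Kmo was at 0.03 if mild cold 2 was dropped, 0.11 if room temperature 3 was dropped and 0.11 with the deepest libraries dropped. Over the fits that each left out 1 library, Afmid ranged from -0.065 to 0.40 and Kmo from -0.23 to 0.11. The cause was not tested. Mild cold 2 alone, a setting chosen after seeing the data, gave -0.72 for Tdo2 and -0.66 for Afmid, and no value for Kynu, which had 0 counts there. Over all settings, 117 values of single members kept their direction and side of the threshold, 2 came to pass it and 8 turned direction. Depth limits Ido2, Acmsd and Il4i1, with at most 75 counts over all 6 libraries.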
